A study of Arabidopsis thaliana and Hordeum vulgare and Setaria italica with 13 samples.

Results

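The tRNA pool of soybean seedlings was set against that of Arabidopsis thaliana over the 52 anticodons listed in the tRNA-seq table, with 1 library per species out of 13 in the series. All 52 rows were taken, with no selection on their values, and they were also summed over the 20 amino acids. Soybean (Glycine max) is a legume crop and A. thaliana a small model plant of the mustard family, so both are eudicots, the broad-leaved branch of flowering plants. Plants of both species were 10 days old and had been raised in soil at 23 ºC, in days of 16 h light and 8 h dark. No treatment or genetic change is given. The soybean library is labelled as seedling, with no organ named. The 2 A. thaliana columns are labelled as seedling leaf and seedling root, but they hold the same value in 52 of 52 rows, so 1 of them was used and the tissue behind it is not known. A difference between the species thus cannot be told apart from a difference in tissue, and fewer cells of a type cannot be told apart from less tRNA per cell. For tRNA-seq, total RNA was treated with a kit for tRNA-derived fragments and then read with a small RNA kit, and the labels do not say whether reads of fragments were counted. Each value is the percentage of the total tRNA abundance of a library that 1 tRNA family holds, where a family is all tRNAs with 1 anticodon, written with its amino acid and in DNA letters (AspGTC). The soybean column summed to 99.97 and the A. thaliana column to 100.47. The number of reads behind the percentages is unknown, and with 1 library per species no difference can be set against a replicate spread, so no test was made.

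A tRNA reads a codon with its anticodon and delivers the matching amino acid to the ribosome. The first anticodon base faces the third codon base and may pair loosely (wobble), and an A in that place is usually converted to inosine in plant cytosolic tRNAs, which widens what it reads. Plant cells hold 3 sets of tRNAs, encoded in the nucleus, the plastid and the mitochondrion, and many anticodons occur in more than 1 set. The percentages do not separate these sets.

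Sequences are shown for the families with the largest differences in share, 4 that stood higher in soybean and 4 that stood higher in A. thaliana, so that the molecules behind the names can be seen. They are the most abundant A. thaliana sequence of each family in the YAMAT-seq library of full-length tRNAs, which has 13439654 reads in 143 sequences, and AspGTC is shown in its plastid and its nuclear form. No soybean sequence was used here. Each is written 5′ to 3′ with its anticodon in capitals, and the last 3 bases, CCA, are added after transcription.
AspGTC, plastid: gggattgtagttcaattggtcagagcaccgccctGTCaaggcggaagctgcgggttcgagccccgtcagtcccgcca
AspGTC, nuclear: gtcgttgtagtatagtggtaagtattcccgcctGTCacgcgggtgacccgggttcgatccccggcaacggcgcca
SerAGA, nuclear: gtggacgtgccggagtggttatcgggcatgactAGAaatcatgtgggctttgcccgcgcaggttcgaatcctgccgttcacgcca
GluCTC, nuclear: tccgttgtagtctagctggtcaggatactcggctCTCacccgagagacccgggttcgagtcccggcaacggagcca
ThrTGT, plastid: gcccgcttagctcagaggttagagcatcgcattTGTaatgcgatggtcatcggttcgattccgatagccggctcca
GlnCTG, nuclear: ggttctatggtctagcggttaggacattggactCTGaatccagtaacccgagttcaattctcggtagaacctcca
ProTGG, mitochondrial: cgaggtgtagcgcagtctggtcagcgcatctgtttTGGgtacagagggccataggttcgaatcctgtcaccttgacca
MetCAT, plastid: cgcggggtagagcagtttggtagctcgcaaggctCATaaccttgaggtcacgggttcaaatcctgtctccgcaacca
LeuTAG, plastid: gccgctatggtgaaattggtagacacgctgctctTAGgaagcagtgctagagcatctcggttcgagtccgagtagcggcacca

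Each of these sequences matched the TAIR10.1 genome exactly once CCA was removed. The AspGTC sequences lie in ArthCt095 (plastid, 29801 to 29874, minus strand) and, as the first of 21 places, in AT1G03515 (chromosome 1, 877648 to 877719, plus strand). The SerAGA sequence matched 20 places, among them AT1G15650 (chromosome 1, 5380907 to 5380988, plus strand), and GluCTC matched 9, among them AT1G29210 (chromosome 1, 10207306 to 10207378, minus strand). GlnCTG matched 4 places, among them AT2G16240 (chromosome 2, 7039094 to 7039165, plus strand). The organelle sequences each matched 1 place in their genome, in ArthCt100 for ThrTGT (plastid, 46213 to 46285, minus strand), DA397_mgt03 for ProTGG (mitochondrion, 42116 to 42190, plus strand), ArthCt099 for MetCAT (plastid, 36704 to 36777, minus strand) and Arthct122 for LeuTAG (plastid, 114270 to 114349, plus strand). The plastid and nuclear forms of AspGTC differ by 26 edits over lengths of 77 and 75 bases. In the same way the plastid and nuclear forms stand 25 edits apart for ThrTGT, 31 for ProTGG, 28 for MetCAT and 39 for LeuTAG. The plastid AspGTC sequence was listed unchanged in the YAMAT-seq files of 4 grasses, and the nuclear one in 2.

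The soybean pool was led by tRNAs for aspartate, serine and glutamate, and the A. thaliana pool by a glutamine tRNA that was minor in soybean. AspGTC, SerAGA and GluCTC held 55.0% of the soybean pool, whereas the 3 leading families of A. thaliana held 39.7%. It took 3 families to reach 50% of the pool in soybean and 5 in A. thaliana, and 14 against 19 to reach 90%. Of the 52 anticodons, 44 were above 0 in soybean and 47 in A. thaliana, 42 in both.

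With a ratio of at least 2-fold as the mark, on the scale of percent + 0.01, 12 families (23.1%) were higher in soybean and 21 (40.4%) were lower, together 33 of 52 (63.5%). The remaining 19 lay within that range, 3 of them at 0 in both libraries. Among the 25 families of at least 1% in either library, 7 were higher, 10 were lower and 8 were neither. Summed over families, soybean was higher by 63.4 points, of which AspGTC, SerAGA and GluCTC made up 80.0%. GlnCTG, ProTGG, MetCAT, LeuTAG and GlyGCC made up 71.8% of the points by which soybean was lower.

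**Figure D1:**
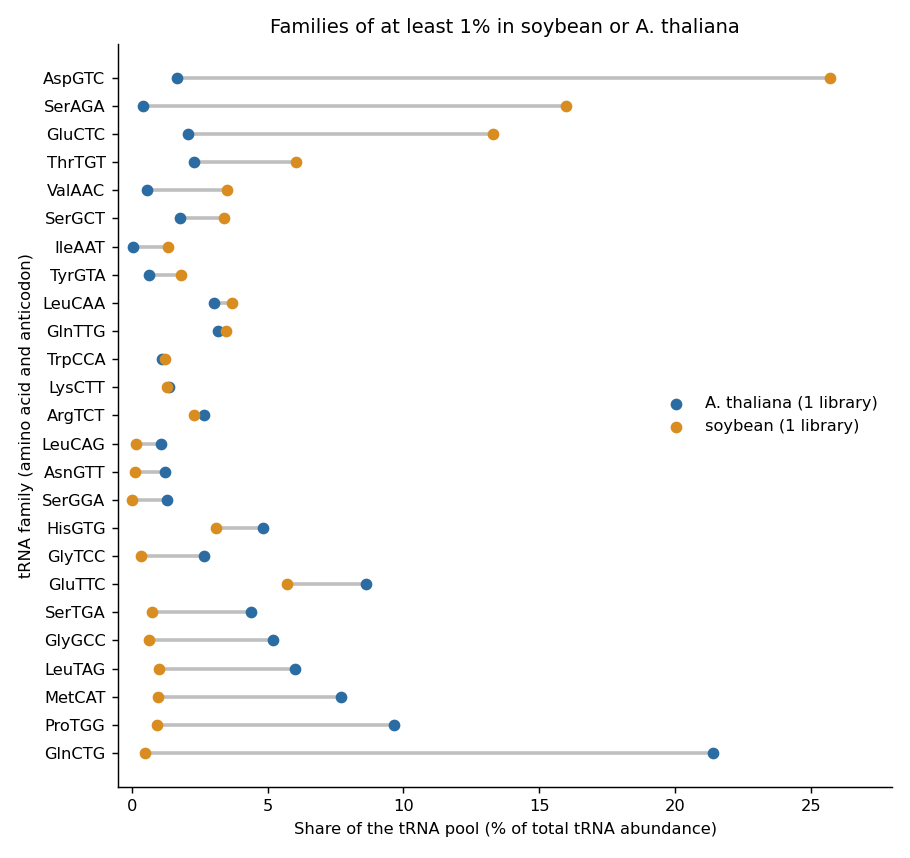
Share of the tRNA pool (percent of total tRNA abundance, x axis) of the 25 families of at least 1% in either library (y axis), as 1 point per library, with a grey line joining the species. AspGTC reaches 25.7% in soybean and GlnCTG 21.4% in A. thaliana, while TrpCCA, LysCTT and GlnTTG lie almost on top of each other.

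Among the tRNAs of acidic residues, AspGTC, which reads both aspartate codons, was 25.7% in soybean and 1.68% in A. thaliana, 15.3-fold higher in soybean. It ranked first in soybean and 16 in A. thaliana. GluCTC, the glutamate tRNA for codons ending in G, was 13.3% against 2.09%, 6.37-fold higher. The other glutamate tRNA, GluTTC, whose plastid form also starts the synthesis of chlorophyll and haem, was 5.73% against 8.64%. Aspartate and glutamate together made up 44.7% of the soybean pool and 12.4% of the A. thaliana pool, with 2 of the 4 listed families higher and 0 lower, beside 23.1% higher and 40.4% lower of all 52. The fourth, AspATC, was at 0 in both.

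The hydroxyl residues, serine and threonine, also stood higher in soybean in sum, at 27.1% against 10.7%. SerAGA was 16.0% in soybean and 0.426% in A. thaliana, 37.6-fold higher in soybean, with rank 2 there and rank 28 in A. thaliana. ThrTGT was 6.06% against 2.29%, 2.65-fold higher. SerGCT, which reads the serine codons set apart from the other 4 in the genetic code, was 3.41% against 1.78%. Not all serine tRNAs went this way: SerTGA was 0.752% in soybean and 4.39% in A. thaliana, and SerGGA was 1.30% in A. thaliana and listed at 0 in soybean. Of the 9 families of this group 4 were higher (44.4%, against 23.1% of all 52) and 3 lower (33.3%, against 40.4%), with ThrCGT and SerCGA, both under 1%, among the higher and ThrGGT, listed at 0 in soybean, among the lower.

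The amides showed the reverse picture. GlnCTG, the glutamine tRNA for codons ending in G, was 21.4% in A. thaliana and 0.498% in soybean, 43.0-fold lower in soybean, where it ranked 22. GlnTTG, its partner for codons ending in A, was 3.16% and 3.48%, a ratio of 1.10. AsnGTT, the only listed asparagine tRNA, was 1.23% in A. thaliana and 0.127% in soybean, 9.71-fold lower. Glutamine and asparagine together thus held 25.8% of the A. thaliana pool and 4.11% of the soybean pool.

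Proline, methionine and glycine tRNAs were lower in soybean as well. ProTGG was 9.67% in A. thaliana and 0.927% in soybean, 10.4-fold lower. MetCAT, which covers the initiator that starts every protein and the elongator used within it, was 7.71% and 0.976%, 7.89-fold lower. Isoleucine tRNAs with the same anticodon, encoded in the A. thaliana plastid and mitochondrion among others, have no row of their own. Whether they were counted with MetCAT is not known. For glycine, GlyGCC was 5.21% and 0.644%, GlyTCC 2.64% and 0.332%, and GlyCCC 0.980% and 0.166%, so that all 3 glycine families were between 5.91-fold and 8.09-fold lower. AlaTGC was the only alanine family above 0 in A. thaliana, at 0.445% against 0.0488%. AlaAGC and AlaCGC, at 0 in A. thaliana, were each 0.0293% in soybean.

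Branched aliphatic residues split by family. LeuTAG was 6.0% in A. thaliana and 1.02% in soybean, LeuCAG 1.06% and 0.156%, and LeuTAA 0.906% and 0.127%, while LeuCAA was 3.03% and 3.69%. ValAAC was 3.49% in soybean and 0.544% in A. thaliana, 6.42-fold higher, and IleAAT was 1.32% and 0.0297%, 44.4-fold higher. ValTAC went the other way, at 0.0390% in soybean and 0.554% in A. thaliana, 14.2-fold lower, and IleGAT was 0.346% in A. thaliana and listed at 0 in soybean. The ratios of IleAAT and ValTAC are rough, because their smaller values were small multiples of the lowest listed ones. These were 0.00990% in A. thaliana and 0.00976% in soybean. In all, 2 of these 12 families were higher and 6 lower (16.7% and 50%), near the shares of 23.1% and 40.4% over all 52.

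Of the 8 families for basic residues 1 was higher and 3 were lower (12.5% and 37.5%, against 23.1% and 40.4% of all 52), and of the 3 for aromatic residues 1 was higher and 0 were lower. ArgTCT, the main arginine tRNA, was 2.27% in soybean and 2.67% in A. thaliana, LysCTT was 1.30% and 1.38%, and HisGTG 3.11% and 4.83%. TrpCCA was 1.21% and 1.13%, and TyrGTA was 1.82% and 0.619%, 2.93-fold higher in soybean. ArgTCT, LysCTT, TrpCCA, GlnTTG and LeuCAA were the 5 families of at least 1% that differed by less than 1.5-fold. ArgCCT was higher at 0.224% against 0.0445%, and ArgCCG, ArgTCG and LysTTT were lower. CysGCA was 0.234% and 0.332%, and PheGAA held the lowest listed value above 0 in both libraries, at 0.00976% and 0.00990%.

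The 27 families under 1% in both libraries summed to 2.66% in soybean and 5.55% in A. thaliana, and 5 of them were higher, 11 lower and 11 neither, near the shares of 23.1% higher and 40.4% lower over all 52. Besides SerGGA and IleGAT, the families listed at 0 in soybean alone were ThrGGT, ValCAC and ProCGG, at 0.0792%, 0.0297% and 0.0198% in A. thaliana. A value of 0 need not be an absent tRNA, since the set of reference tRNAs used for soybean is not known here.

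Summed by amino acid, 6 of 20 were at least 2-fold higher in soybean (30%) and 7 were lower (35%). Aspartate was the highest of them at 25.7% against 1.68%, followed by serine at 20.8% against 8.20%, threonine, valine, tyrosine and isoleucine. Glutamate was 19.0% against 10.7%, 1.77-fold higher and short of the mark. The lower ones were glutamine at 3.98% against 24.6%, proline at 1.04% against 9.82%, glycine at 1.14% against 8.83%, methionine, leucine at 5.06% against 11.1%, asparagine and alanine. Arginine, lysine, histidine, tryptophan, phenylalanine and cysteine were between 1.01-fold and 1.55-fold apart.

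**Figure D2:**
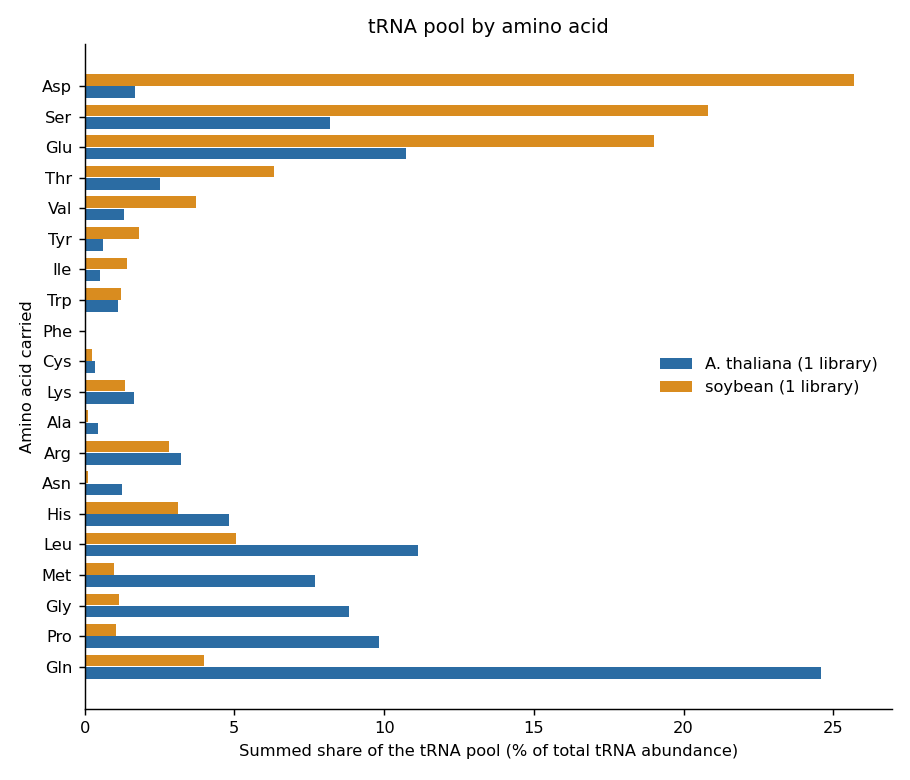
Summed share of the tRNA pool (percent of total tRNA abundance, x axis) by amino acid (y axis), with 1 bar per library. Aspartate, serine and glutamate take the longest soybean bars (25.7%, 20.8% and 19.0%), and glutamine, leucine and glutamate the longest A. thaliana bars (24.6%, 11.1% and 10.7%).

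The choice among anticodons of 1 amino acid was then compared, because a share within an amino acid does not move with the other amino acids. Of 41 families in 12 amino acids, 16 (39%) differed by at least 20 points, and these lay in 7 amino acids. GlnCTG took 87.1% of the glutamine tRNA in A. thaliana and 12.5% in soybean. GluCTC took 19.5% of glutamate tRNA in A. thaliana and 69.9% in soybean. Both glutamine and glutamate are read by a pair of families for codons ending in G or A, and soybean had the smaller share of the G-reading family in glutamine and the larger one in glutamate.

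Serine, valine and isoleucine each changed their leading family. In A. thaliana the lead within valine was slight, with ValTAC at 0.554% and ValAAC at 0.544% of the pool. Isoleucine tRNA was 0.515% of that pool, under 1%, so its shares there are rough. SerAGA took 5.19% of the serine tRNA in A. thaliana and 76.9% in soybean, whereas SerTGA took 53.5% and 3.61%. ValAAC went from 41.4% to 93.7% of valine tRNA and ValTAC from 42.1% to 1.05%, and IleAAT went from 5.77% to 93.1% of isoleucine tRNA, in place of IleGAT at 67.3% and 0%. SerAGA, ValAAC and IleAAT, which led in soybean, all have A as the first anticodon base. The leader also changed in glutamine, glutamate and leucine, to GlnTTG, GluCTC and LeuCAA, whose first bases are T, C and C. In leucine LeuTAG was 54.0% in A. thaliana and 20.1% in soybean, and LeuCAA was 27.3% and 73.0%. The 3 alanine families also passed 20 points, but alanine was at most 0.445% of either pool.

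In glycine, threonine, arginine, proline and lysine no family moved by more than 13.8 points. Glycine tRNA was 7.74-fold lower in soybean, yet GlyGCC made up 59.0% and 56.4% of it, GlyTCC 29.9% and 29.1%, and GlyCCC 11.1% and 14.5%, in A. thaliana and soybean. ProTGG likewise stayed the main proline tRNA, at 98.4% and 88.8%, ThrTGT the main threonine tRNA, at 91.7% and 95.7%, and ArgTCT the main arginine tRNA, at 82.9% and 80.9%. Restricted to amino acids of at least 1% in both libraries, the count of 16 became 10.

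**Figure D3:**
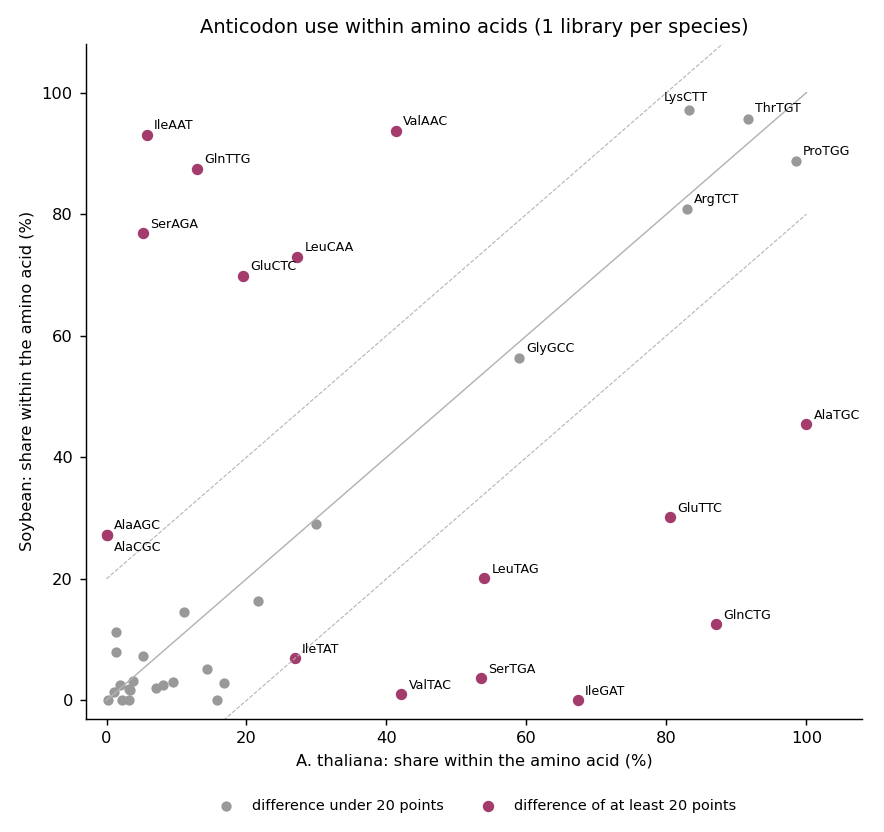
Share of each family within its amino acid (percent) in A. thaliana (x axis) and soybean (y axis), 1 library per species and 41 families. The solid line marks equal shares and the dashed lines 20 points, and SerAGA, IleAAT, GlnTTG and GluCTC lie far above it while GlyGCC, ArgTCT and ThrTGT lie close to it.

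Families were also grouped by where A. thaliana encodes them and by the first anticodon base. Of the 52 anticodons, 28 have a tRNA gene in the A. thaliana plastid genome. Of these, 3 were higher in soybean (AspGTC, ThrTGT and TyrGTA) and 14 were lower, or 10.7% and 50%, against 23.1% and 40.4% of all 52. Their median log2 ratio was -1.58, against -0.35 over all 52 anticodons. The lower ones include ProTGG, MetCAT, LeuTAG, GlyGCC, GlyTCC, SerTGA, SerGGA, AsnGTT, ValTAC, LeuTAA and AlaTGC. Among the 24 anticodons without a plastid gene, 9 were higher and 7 lower (37.5% and 29.2%), with a median of 0.00. That median is set by 3 anticodons at 0 in both libraries. For the 14 of these 24 with a mean of at least 0.1% the median was 0.48. It was -1.58 for plastid-gene anticodons under the same minimum. The 9 higher ones include SerAGA, GluCTC, ValAAC and IleAAT, and the 7 lower ones include GlnCTG, which had the largest difference in points among them.

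Of the 28 anticodons with a plastid gene, 25 also have annotated nuclear genes in A. thaliana and 15 have mitochondrial ones. The values do not say which form was read. SerGGA counts as nuclear by 1 gene, and 0 of its YAMAT-seq reads were assigned to a nuclear form. Whether each annotated gene yields a tRNA was not tested. Among the plastid-gene anticodons with a mitochondrial gene, 2 of 15 were higher and 7 were lower, and among the other 13 it was 1 and 7. The lower shares of these parts, 46.7% and 53.8%, stand beside 40.4% of all 52, and the higher shares, 13.3% and 7.69%, beside 23.1%. In sum the plastid-gene anticodons held 62.1% in soybean and 71.3% in A. thaliana, and 36.5% against 69.6% when AspGTC was left out. The anticodons without one held 37.8% and 29.2%, and 37.3% against 7.78% when GlnCTG was left out. Each list thus lost only the member with the largest difference against the direction of its sum, which widens the gap. SerAGA, at 16.0% in soybean and 0.426% in A. thaliana, stayed in the list without a plastid gene. A sum without SerAGA was not computed, so these sums rest on which family is left out. With only families of a mean of at least 0.1%, those without a plastid gene were 7 higher and 4 lower in place of 9 and 7. Plastid-gene families were then 3 higher and 13 lower in place of 3 and 14.

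By first anticodon base, families with A were 4 higher and 0 lower of 10 (40% and 0%, against 23.1% and 40.4% of all 52), and held 21.3% of the soybean pool against 1.5% of the A. thaliana pool. SerAGA, ValAAC and IleAAT made up nearly all of this, at 20.8% against 1.00%. The other higher family, AlaAGC, was at 0 in A. thaliana and 0.0293% in soybean, so its ratio is set by the added 0.01. CysACA and AspATC were at 0 in both libraries. With a mean of at least 0.1%, 3 of 5 families with A were higher and 0 lower. Families with T were 1 higher and 9 lower of 14 (7.14% and 64.3%), and held 21.0% against 41.9%. Families with G were 2 higher and 5 lower of 13 (15.4% and 38.5%) and those with C 5 higher and 7 lower of 15 (33.3% and 46.7%), both nearer to the shares of all 52. The G families held 35.2% in soybean against 17.6%, but 9.55% against 15.9% without AspGTC. The C families held 22.4% against 39.5%, but 21.9% against 18.1% without GlnCTG. The base and the plastid list overlap: 12 of the 14 T families and 12 of the 13 G families have a plastid gene, but 1 of the 10 A families and 3 of the 15 C families do. Among the 12 G families with a plastid gene 2 were higher and 5 lower, and among the 12 such T families 1 was higher and 8 lower. The part of each feature in the difference was not tested. By the number of G and C in the anticodon, the 4 families with 0 had a median log2 ratio of -1.51, the 20 with 1 had -0.05, the 22 with 2 had -0.33, and the 6 with 3 had -1.68. Of the 10 families for leucine and serine, tRNAs with an extended variable loop, 2 were higher and 5 lower (20% and 50%, near 23.1% and 40.4% of all 52), with a sum of 25.9% in soybean and 19.3% in A. thaliana.

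**Figure D4:**
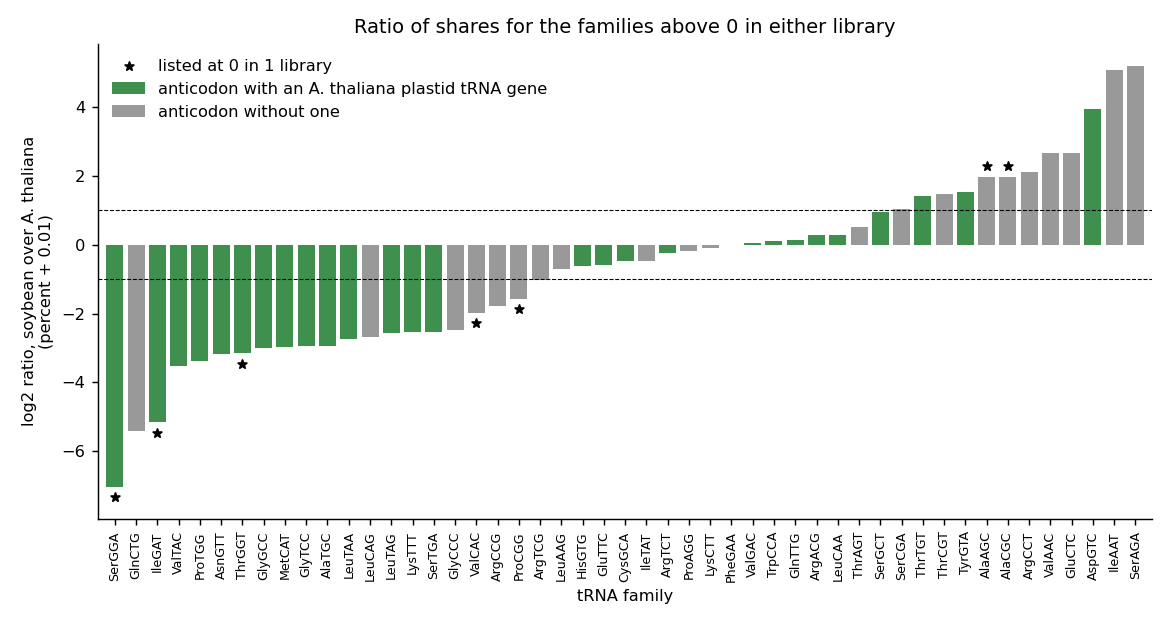
Log2 ratio of soybean over A. thaliana on the scale of percent + 0.01 (y axis) for the 49 families above 0 in either library (x axis), coloured by whether A. thaliana has a plastid tRNA gene with that anticodon. Dashed lines mark 2-fold and stars mark families listed at 0 in 1 library, whose ratio is set by the added 0.01. Plastid-gene families are 28 of the 49 bars, 14 of the 21 bars below the lower line and 3 of the 12 above the upper line.

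The 5 grass libraries of the same table (barley, sorghum, foxtail millet, wheat and maize, 1 library each) give a range in which soybean and A. thaliana can be placed. With 1 library per species, that place does not show in which species a share changed. AspGTC at 25.7% in soybean was 3.20-fold above the next highest of the other 6 species, barley at 8.04%, and SerAGA at 16.0% was 5.81-fold above wheat at 2.75%. GlnCTG at 21.4% in A. thaliana was 12.0-fold above barley at 1.79%, whereas soybean at 0.498% lay within the grass range of 0.117% to 1.79%. ProTGG in A. thaliana was 10.4-fold and LeuTAG 5.91-fold above soybean, itself the next highest species for both. SerTGA in A. thaliana was 2.63-fold above barley at 1.67%, the next highest, and soybean was the lowest of the 7.

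For GluCTC, ThrTGT, ValAAC and IleAAT it was A. thaliana that lay below all other 6 species, and soybean fell within the grass range. For GluCTC wheat alone, at 14.1%, was above soybean. For MetCAT and GlyGCC both species lay inside the range of the grasses, which ran from 0.938% to 12.5% and from 0.558% to 9.25%. A. thaliana was the highest of the 7 species in 12 families and the lowest in 8, and soybean the highest in 5 and the lowest in 7.

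**Figure D5:**
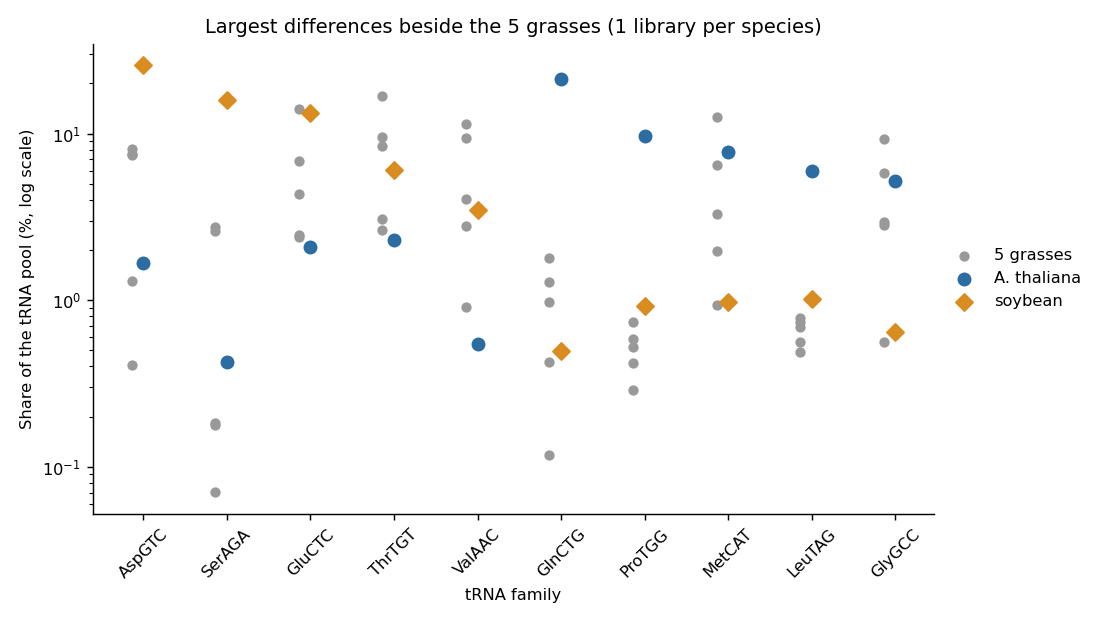
Share of the tRNA pool (percent, log axis) for the 5 families with the largest differences in points in each direction (x axis), with 1 point per species and the 5 grasses in grey. Soybean stands alone at the top for AspGTC and SerAGA, and A. thaliana for GlnCTG, ProTGG and LeuTAG.

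Taking for each family the smaller of the 2 percentages, the soybean and A. thaliana pools had 36.5 points in common. Among the 20 other pairs of species in the table this overlap ran from 27.2 to 70.4 points with a median of 40.6, and the pair ranked 18 of 21. By Spearman's rho over the 42 families above 0 in both, which weighs small families as much as large ones, the pair stood at 0.568 and ranked 9 of 21, with a range of 0.349 to 0.913 over the other pairs. Soybean shared 37.6 to 48.1 points with each of the grasses, and A. thaliana 32.6 to 40.7. The pairs share libraries and each species has 1 library, so these values are a description. With amino acid sums the overlap was 46.6 points, within a range of 37.6 to 72.1 over the other pairs.

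The YAMAT-seq library gives a second reading of A. thaliana for the same families, and soybean has no such file here. Its leading family was GlyGCC at 55.3%, mostly of the plastid form, with 7431104 of 7433551 reads. GlnCTG, which led tRNA-seq in A. thaliana at 21.4%, had 360 reads or 0.00268% there, all in 5 nuclear sequences. GlnTTG had 2952630 reads or 21.97%, of which 2919301 were of the plastid form, so glutamine tRNA was nearly all GlnTTG in YAMAT-seq and mostly GlnCTG in tRNA-seq of A. thaliana. AspGTC had 589417 reads or 4.39%, of which 491783 were of the plastid form and 62138 of nuclear forms. SerAGA had 28 reads, GluCTC 62060, ThrTGT 1887 and ProTGG 18224, of which 15442 were of the mitochondrial form. The assays select tRNAs differently, so these levels are not set against soybean.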

How the data were processed

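Per the file headers, the authors deposited tRNA-seq values as percent of total tRNA abundance, and YAMAT-seq values as read counts per tRNA sequence. Cutadapt and the build TAIR10 are named in the submitters' processing notes. The aligner, the soybean reference tRNAs and the treatment of multiply matching reads: not given in the sources used here. Some tRNAs may be over-represented through adapter ligation, reverse transcription of modified bases or PCR. The tRNA-seq depth is unknown, so no interval was computed.

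Each library was its own group, by sample title, and without replicates there was no test. Ratios were log2 ratios of percent + 0.01, with 2-fold as the mark, and fold values in the text are plain ratios of percentages above 0. Shares within an amino acid covered families above 0 in either library, in amino acids with at least 2 of them. Plastid genes came from the TAIR10.1 annotation, with anticodons read from the anticodon loop, and nuclear and mitochondrial genes carry theirs in the annotation. YAMAT-seq sequences were matched exactly to TAIR10.1, organelles first; 7 of 143 had no match. Edits were counted with edlib 1.3.9.post1. The counting steps were tested on simulated data.

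All 52 families could be named; those of at least 1% in either library have both values. Sequences were those of the 4 largest differences in points in each direction. Members and lists were chosen with earlier results of these data known. The mitochondrial list, the overlaps of lists, the sums without AspGTC or GlnCTG, the rank correlations and the nuclear AspGTC sequence were added after the values were seen. Alternatives were other pseudocounts, a 4-fold mark, rescaled columns, ratios to the median family, the largest family of each library left out, and a minimum mean of 0.1%.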

Additional observations from a re-analysis of the deposited data

How the results depend on the processing

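Rescaling columns to 100, taking ratios relative to the median family (log2 -0.47 over 40 families averaging 0.1% or more) and leaving out AspGTC and GlnCTG each shift the other families nearly alike by less than the 2-fold mark, so they could not reverse a family past it. SerGCT and ArgTCG changed sides of the mark under the last 2 of these, and the share of higher among called families was 36.4%, 39.4% and 38.7% under them, 36.4% before. Of 65 recounts 51 were within 1.5 times. At 4-fold, higher families were 6 in place of 12, higher amino acids 1 in place of 6, higher plastid-gene families 1 in place of 3, and families without a plastid gene 5 higher and 3 lower in place of 9 and 7. A pseudocount of 1% gave 6 higher and 8 lower families in place of 12 and 21, 7 lower plastid-gene families in place of 14, and 4 higher and 1 lower without a plastid gene. With 0.1% the last list gave 5 higher and 4 lower, and with a minimum mean of 0.1% it gave 7 higher and 4 lower. The pseudocounts and the minimum mean act on small families by construction, and the 4-fold mark also drops larger ones such as ThrTGT and TyrGTA. Shares differing by 20 points numbered 10 in place of 16 for amino acids of at least 1% in both libraries. The overlap of 36.5 points was 36.44 with rescaled columns, 46.6 by amino acid and 45.5 without AspGTC and GlnCTG. The recounts for the plastid lists were chosen after seeing the data. No paired analysis was possible because each species has 1 library. The unknown depth limits families near the lowest listed values, 0.00976% in soybean and 0.00990% in A. thaliana.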

Other observations

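All 44 soybean percentages above 0 were whole multiples of the lowest one, 0.00976%, within a tolerance of 0.001 of a step. In A. thaliana 29 of 47 were whole multiples of the lowest value, 0.00990%, and 47 of 47 were whole multiples of 0.00495%. In each of the 5 grass columns every value above 0 was a whole multiple of its lowest value. No read number was drawn from these steps. AlaAGC and AlaCGC were equal at 0.0293% in soybean, and 10 soybean and 8 A. thaliana families above 0 lay under 0.1%.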
